A study of Mus musculus with 20 samples.

Results

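Livers of PXR-deficient mice that had received TCPOBOP were measured on 4 of the 20 arrays of the series, and these were taken as the arrays whose titles carry the name TCPOBOP_PXRKO. The mice were males on the C57BL/6J strain, 9 to 12 weeks old, given 10 mg/kg TCPOBOP by intraperitoneal injection and killed 12 h later. Each array set the labelled RNA of a treated liver (Cy5, replicates 1 to 4) against RNA pooled from 6 PXR-deficient livers whose donors had received the vehicle, 5% DMSO in corn oil (Cy3). Both channels therefore lacked PXR, and the same pool stood on all 4 arrays. The labels name neither the disrupted allele nor whether the 4 replicates came from separate animals. The p-values rest on a spread estimated over all 20 arrays of the series, not over these 4 alone. They hold no spread of the control, which was a single pool. For comparison, 6 wild type (WT) arrays, 6 CAR-deficient (CARKO) arrays and 4 arrays of mice lacking both receptors (CARPXRKO) had the same strain, sex, age, dose and time, each against a vehicle pool. The pools are labelled with the genotype of their array except on CARPXRKO 3, whose pool is labelled PXR deficient.

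TCPOBOP is a potent activating ligand of the mouse constitutive androstane receptor, CAR. CAR and the pregnane X receptor, PXR, are nuclear receptors of the hepatocyte that sense foreign compounds, heterodimerize with RXR and bind overlapping response elements at genes of drug oxidation, conjugation and transport. The Sterolgene array was built around such genes and those of cholesterol homeostasis. A response to TCPOBOP in livers without PXR is one that does not need PXR itself, and the question the design poses is which responses these are. Which gene each probe identifier stands for is not recorded in the files or the reference tables used here. The largest 2 rises and the largest 2 falls of a comparison are named by identifier, the others are given by their rank, and neither the PXR transcript nor markers of the hepatocyte could be checked.

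Of 120 mouse probes, spotted 3 times each, 77 gave a value on all 4 PXRKO arrays, 15 on 3, 8 on 2, 6 on 1 and 14 on none, because flagged spots were left out. The 92 probes with at least 3 values were tested. In Cy5 60 to 92 probes of an array exceeded background clearly, and in Cy3 50 to 69, against 74 to 89 in Cy3 in WT and 35 to 73 in CARPXRKO. Replicate 3 had the brightest Cy5 channel, with a median foreground of 987 intensity units, compared with 403 to 503 on the other arrays, and replicate 2 had the brightest Cy3 channel, at 776 compared with 478 to 528.5. Replicate 2 stands apart from the other 3 arrays, and values that rest on it are given with and without it. The protocol texts of WT 3, WT 5 and CARPXRKO 3 name the vehicle for the treated sample, against their titles, so comparisons with these genotypes were also run without them and a CARKO array of the same kind. The number of arrays limits the precision.

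TCPOBOP raised 8 of the 92 probes and lowered 5 in PXR-deficient livers (limma, Benjamini-Hochberg adjusted p under 0.05), which is 8.7% and 5.43% of the probes tested and 14.1% together. Values are log2 ratios of treated liver over pool after within-array loess, and the median over all 92 probes was −0.0023. In whole liver RNA, a change in the share of a cell type and a change of RNA per cell cannot be told apart, and without a dye swap neither can a dye effect and a response. The 2 largest rises stood far above the others. Mm038 had log2 ratios of 3.71, 5.10, 3.57 and 3.94 on replicates 1 to 4, and Mm039 had 3.18, 4.20, 3.07 and 3.56. For both probes the highest value was that of replicate 2, and all 4 arrays lay above 3. The mean of Mm038 was 4.08 ± 0.70 (SD, n = 4; limma, adjusted p = 4.08e-05) and that of Mm039 was 3.50 ± 0.51 (SD, n = 4; limma, adjusted p = 6.59e-06). Mm038 was not well above background in the pool on any array, so its level is a bound: treated livers were on average at least 15.5-fold higher than the pool, and at least 12.9-fold without replicate 2. The lowest bound of a single array was 11.8-fold. These bounds concern the weak pool signal under the main normalization and hold no spread between arrays. The pool signal of Mm039 was well above background only on replicate 2, so the other 3 log2 ratios of this probe rest on a pool signal near background.

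The other 6 rises were moderate and were measured well above background in both channels on all 4 arrays. Their means lay between 0.52 and 1.18. The third largest rise was 1.67, 1.43, 1.06 and 0.56 on replicates 1 to 4, with a mean of 1.18 ± 0.48 (SD, n = 4; limma, adjusted p = 8.88e-04), and it was above 0 on 4 of 4 arrays. The fourth and the fifth had means of 1.13 ± 0.45 and 1.01 ± 0.47 (SD, n = 4), also with every array above 0. The sixth ran from 0.045 on replicate 2 to 1.67 on replicate 4. The seventh was near 1.1 on replicates 1, 3 and 4 (1.13, 1.15 and 1.12) and 0.42 on replicate 2. The smallest rise was 0.64, 0.78 and 0.80 on those arrays and −0.14 on replicate 2. Replicate 2 was thus the lowest array for 5 of the 8 rises, and the highest for Mm038 and Mm039.

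The falls had means of −1.34 to −0.38. Mm001 had log2 ratios of −2.37, 0.82, −1.79 and −2.03 on replicates 1 to 4, so that 3 arrays lay below −1.7 and replicate 2 lay on the other side of 0. Its mean was −1.34 ± 1.46 (SD, n = 4; limma, adjusted p = 0.0226), and −2.06 without replicate 2. Mm150 had −1.09, 0.10, −0.85 and −0.87, with a mean of −0.68 ± 0.53 (SD, n = 4; limma, adjusted p = 0.0169) and a mean of −0.94 without replicate 2. The spots of Mm001 agreed within replicate 2, where its 3 spots gave 0.77 to 0.84, and so did those of Mm150, at 0.038 to 0.15. The 3 remaining falls had means between −0.42 and −0.38. The third largest fall had its lowest value, −1.12, on replicate 3, with −0.28 to −0.037 elsewhere, and the smallest fall was below 0 on 4 of 4 arrays, from −0.60 to −0.22. Replicate 2 was the highest array for 4 of the 5 falls.

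**Figure D1:**
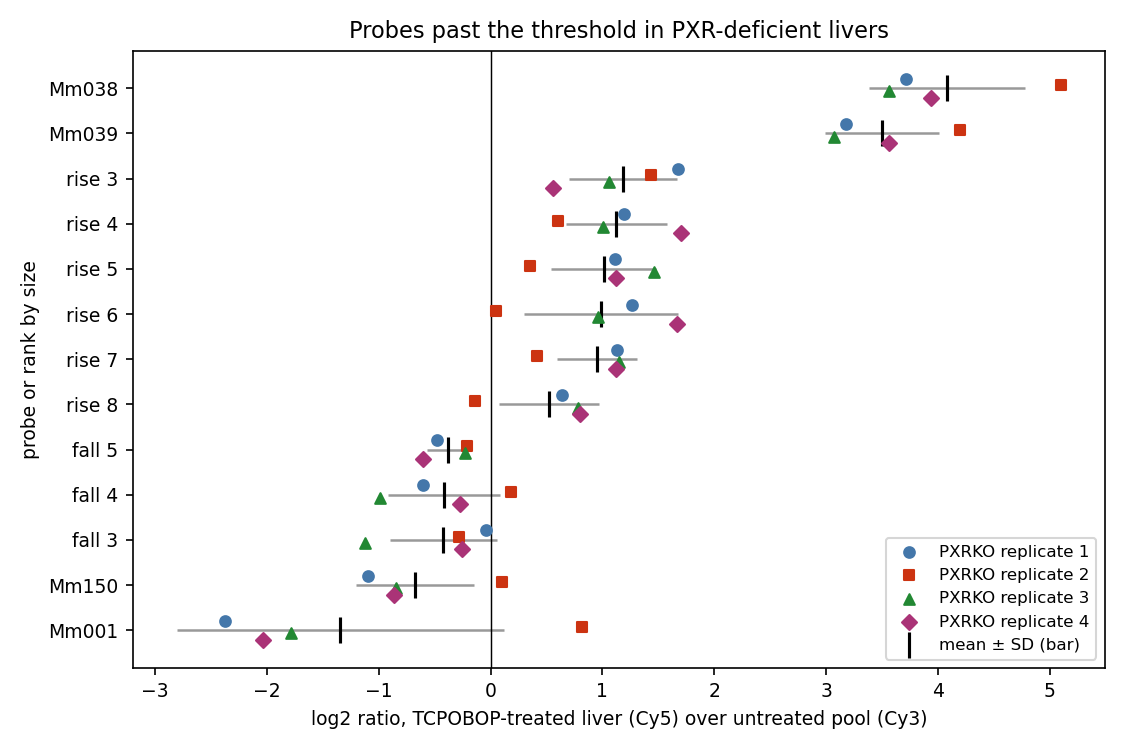
Log2 ratio of treated liver (Cy5) over pool (Cy3) on each PXRKO array for the 8 probes that rose and the 5 that fell, with the mean and SD over the arrays as tick and bar; probes other than the 4 named are labelled by rank. Mm038 and Mm039 lie between 3.07 and 5.10 on all arrays, while replicate 2 (squares) is at 0.82 for Mm001, where the other arrays lie between −2.37 and −1.79.

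The falls depended on the number of arrays more than the rises did, and their count moved with the centring in both directions. With the calibration spots as centre, the median log2 ratio over all probes was 0.50, and 8 probes rose and none fell. That centring shifts all probes of an array together, here upward, so by itself it favours rises over falls. With median centring in place of loess, 11 probes rose and 9 fell. In the fit of the 4 PXRKO arrays alone 7 probes rose and none fell (limma, 18 probes at an unadjusted p under 0.05), with adjusted p = 0.232 for Mm001 and 0.121 for Mm150. The odd and the even replicates lay in different slide positions: replicates 1 and 3 gave 7 rises and 3 falls, and replicates 2 and 4 gave 3 rises and no falls (limma, 11 probes at unadjusted p under 0.05). A block for position gave 11 and 5. Mm038 and Mm039 passed the threshold in all 21 alternatives run, with mean log2 ratios of 3.54 to 4.73 and 3.03 to 4.003. Mm001 and Mm150 each lost their call in 8 of the 21, among them without replicate 1, 3 or 4 (adjusted p of 0.125 to 0.142 and of 0.0863 to 0.117).

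Replicate 2 differed from the other 3 PXRKO arrays across most of the probes. Over the 77 probes with 4 values, the median absolute deviation of replicate 2 from the mean of the other arrays was 0.38 on the log2 scale, compared with 0.18 to 0.21 for the others, and replicate 2 was the farthest array for 47 of the 77 probes. Without Mm038 and Mm039, its log2 ratios had Pearson correlations of −0.031 to −0.0081 with those of the other replicates across 75 probes. Replicates 1, 3 and 4 correlated at 0.60 to 0.82 among themselves over the same probes. Probes are not independent replicates, and all arrays share the pool, the dye orientation and the probe set. Over the same 75 probes Spearman correlations were −0.10 to −0.054 with replicate 2 and 0.70 to 0.82 among the others. In the authors' deposited table the Pearson correlations, over the 72 probes with 4 values there, were 0.57 to 0.66 with replicate 2 and 0.90 to 0.94 among the others, with Mm038 and Mm039 kept. After the normalization used here the values were 0.58 to 0.62 and 0.79 to 0.91, over the 77 probes with 4 values, which is a different set. Against the mean profile of WT arrays, over 71 probes without Mm038 and Mm039, replicate 2 correlated at 0.35 and the others at 0.44 to 0.64. Against the CARPXRKO mean, over 75 probes, replicate 2 was at 0.086 and the others at −0.44 to −0.40.

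**Figure D2:**
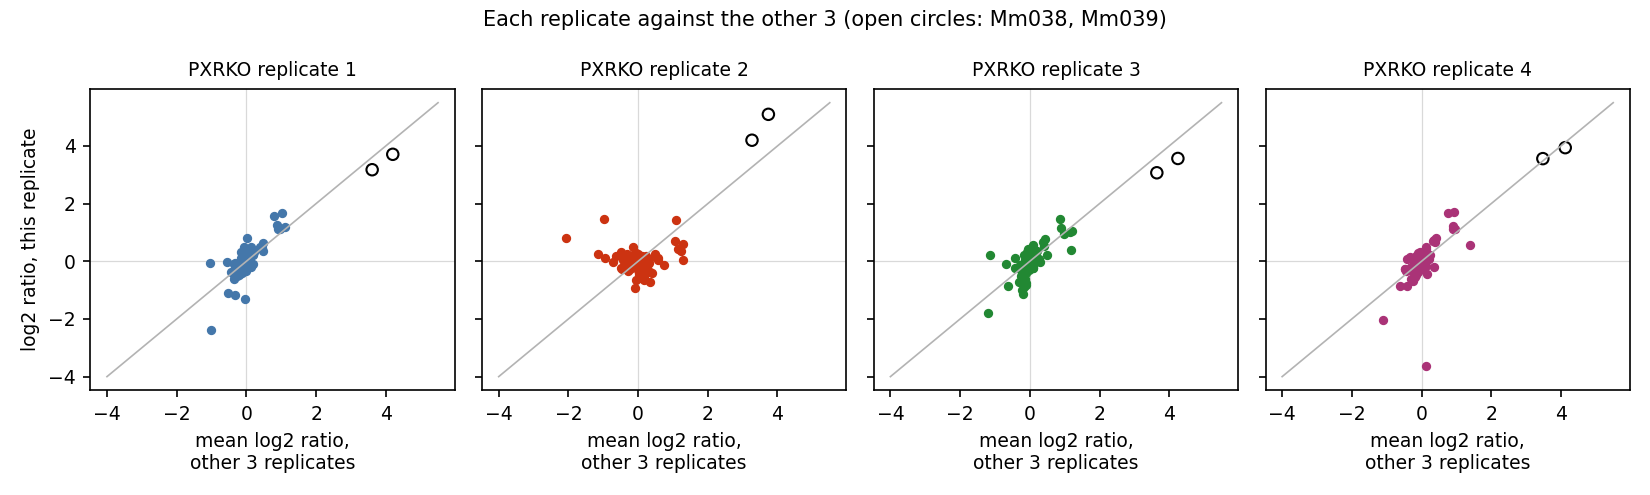
Log2 ratio of 77 probes on each PXRKO array (vertical) against the mean of the other 3 arrays (horizontal), with the line of equality; open circles are Mm038 and Mm039. On replicate 2 the filled points form no slope although both open circles lie above the line, while replicates 1, 3 and 4 follow the others, apart from a single point at −3.63 on replicate 4.

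Leaving out replicate 2 doubled the number of calls, to 13 rises and 13 falls among 77 probes (16.9% each), and all 13 calls of the full set were among them. Replicate 2 itself had no part in choosing these 26 probes, but it shares the pool and the dye orientation with the arrays that did. An error of either would carry over to its signs, so they are not an independent check. On replicate 2, 12 of the 13 rises were above 0, with a median of 0.35, against 44 of all 77 probes (57.1%) and a median of 0.054. Of the 13 falls, by contrast, 3 were below 0 on replicate 2, with a median of 0.097, against 33 of 77 (42.9%). The rises therefore kept their sign on this array in nearly every case and the falls did not. In wild type livers 12 of the 13 rises were above 0 and 11 of the 12 measured falls below it. Of all 83 probes measured there, 37 were above 0 (44.6%) and 46 below (55.4%). In CARPXRKO livers 2 of 13 rises and 3 of 13 falls had the PXRKO sign. Of all 91 probes measured there, 45 were above 0 (49.5%) and 46 below (50.5%). Leaving out replicate 1, 3 or 4 instead gave 5 rises each time (6.02%, 6.49% and 5.81% of the probes tested) and 1, 1 and 2 falls (1.2%, 1.3% and 2.33%). Each of these probes had the same sign on the array left out, again with the pool and the dye orientation shared. On those arrays 38, 40 and 39 of all 77 probes were above 0 (49.4%, 51.9% and 50.6%). Below 0 were 39, 37 and 38 (50.6%, 48.1% and 49.4%).

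Taken over the 77 probes, the departure of replicate 2 was larger in the channel of the treated liver than in that of the pool. Normalized Cy5 levels of replicate 2 correlated with those of the other arrays at 0.92 to 0.94 across the 77 probes, compared with 0.97 to 0.99 among the others. In Cy3, which held the same pool on each array, replicate 2 correlated with replicates 1 and 3 at 0.99 each, and replicate 4 was the array apart, at 0.94 to 0.95, or 0.97 to 0.98 without a single probe, Mm105. The median SD of a probe over the 4 arrays was 0.29 in Cy5 and 0.18 in Cy3 on the log2 scale, and the Cy5 SD was the larger for 58 of 77 probes (75.3%). Without replicate 2 the median SDs were 0.18 and 0.17, and Cy5 was the larger for 39 of 77 (50.6%). For Mm001 the Cy5 level was 12.47 on replicate 2 and 9.89 to 10.21 on the other arrays, while Cy3 was 11.66 and 12.00 to 12.26. Mm038 and Mm039 went the other way, with SDs over the 4 arrays of 0.31 and 0.21 in Cy5 but 0.55 and 0.38 in Cy3. Their Cy3 levels on replicate 2, 8.31 and 8.88, were the lowest of the 4 arrays, and their Cy5 levels there, 13.41 and 13.08, the highest. The spots of a probe within an array had a median SD of 0.10 to 0.14. The median SD between arrays, which holds differences between samples as well as spots, was 0.27, and 0.17 without replicate 2. These levels are normalized log2 intensities of single channels, and within-array loess ties the channels of an array to each other.

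**Figure D3:**
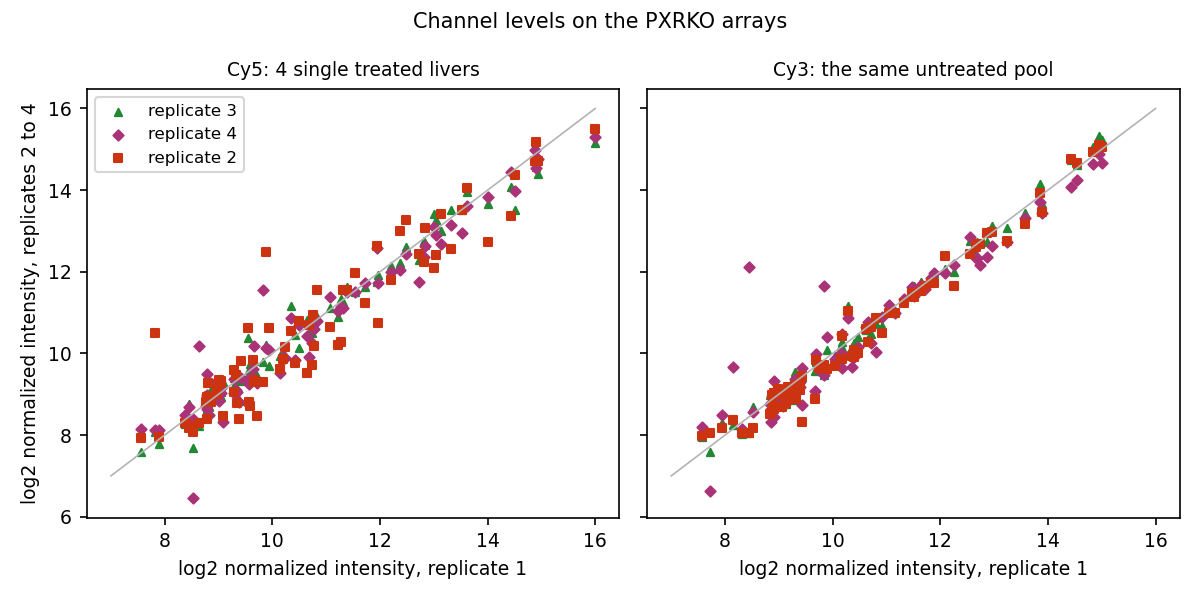
Normalized log2 intensity of 77 probes on replicates 2, 3 and 4 against replicate 1, for Cy5 (treated livers, left) and Cy3 (the shared pool, right), with the line of equality. Replicate 2 (squares) scatters more widely than replicate 3 in Cy5 (correlations with replicate 1 of 0.94 and 0.99) and as tightly in Cy3 (0.99 for both).

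The response of PXR-deficient livers was then set beside that of wild type livers to ask what the loss of PXR changed. The 8 probes that rose in PXRKO all had a mean above 0 in WT, from 0.29 to 4.74, where 37 of 83 measured probes (44.6%) did so. The 5 that fell all had a mean below 0, from −0.44 to −0.0047, against 46 of the 83 (55.4%). Mm038 was at 1.91, 5.04 and 6.20 in WT (lowest, median and highest of 6) and Mm039 at 1.56, 4.70 and 4.88. The groups overlapped for both, for Mm039 through WT 1 alone, since the other 5 WT arrays lay between 4.46 and 4.88, above every PXRKO array. With all arrays none of the 13 probes differed between the genotypes past the threshold (limma, lowest adjusted p = 0.13; 3 at an unadjusted p under 0.05). The intervals were wide. The difference of PXRKO minus WT was −0.66 for Mm038 with a 95% interval of −2.17 to 0.85, and −0.69 for Mm039 with −1.78 to 0.39. Without WT 1 both differences were −1.22, with limma adjusted p = 0.203 for Mm038 and 0.0113 for Mm039, and without PXRKO replicate 2 that of Mm038 was −0.999 (adjusted p = 0.386). The pool of Mm038 was well above background on no array of either genotype and that of Mm039 on 1 WT array and 1 PXRKO array, so these differences rest on pool signals near background. That of Mm001 was −1.15 with −2.24 to −0.063 before adjustment (limma, adjusted p = 0.205), and without replicate 2 it was −1.87 (adjusted p = 0.0053). That of Mm150 was −0.45 (adjusted p = 0.283), and −0.71 without replicate 2 (adjusted p = 0.0365). Whether Mm039, Mm001 and Mm150 passed the threshold against wild type thus depended on a single array each.

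A tested difference from wild type was found for 3 of 83 probes (3.61%), 1 higher (1.2%) and 2 lower (2.41%), and none of the 3 passed the threshold in PXR-deficient livers themselves. Mm018 was at −0.079, −0.34, −0.84 and 0.083 on PXRKO replicates 1 to 4 and at 0.15, 0.68 and 1.05 in WT (lowest, median and highest of 6), and the groups did not overlap. Its difference was −0.94 ± 0.18 (SE; limma, adjusted p = 0.0042). The 3 spots of Mm018 on replicate 3 disagreed, at −1.46 to −0.33, and without that replicate the difference was −0.76 (limma, adjusted p = 0.0294). Mm068 was at −0.054, 0.0015, −0.23 and −0.37 in PXRKO and at 0.26, 0.55 and 1.07 in WT, again without overlap, and differed by −0.80 ± 0.19 (SE; limma, adjusted p = 0.0162). All 6 wild type arrays thus lay above 0 for both probes, and 1 of 4 PXRKO arrays did for each. Mm044, at 0.16, −0.37, 0.30 and 0.027 in PXRKO, was at −1.01, −0.61 and −0.30 in WT and was higher in PXRKO by 0.67 ± 0.17 (SE; limma, adjusted p = 0.0262). These values were not particular to livers without PXR. In CARKO livers the means were −0.074 ± 0.22 for Mm018, −0.15 ± 0.40 for Mm068 and −0.080 ± 0.32 for Mm044 (SD, n = 6). All 3 lay nearer 0 than in WT, and the difference of CARKO from WT was not tested. Non-overlap of PXRKO and WT alone was met by 6 of the 83 probes (7.23%). Without replicate 2 the count was 13, 4 higher and 9 lower, with all 3 probes among them; without replicate 3 or replicate 4 it was 1, Mm018. The call of Mm044 also ended without replicate 1, WT 1 or WT 2 (adjusted p of 0.082, 0.0538 and 0.0573) and without the arrays of conflicting protocol text (0.0722). Centring on the calibration spots moved the median difference over the array to 0.91, with Mm018 at −0.0081 and Mm068 at 0.13. Both are thus lower relative to the other probes and not relative to those spots. The spots were no constant reference within WT, with median log2 ratios of 0.88 to 1.09 on WT 1 to 4. On WT 5 and WT 6 these medians were −0.59 and −0.71, and on the PXRKO arrays −0.78 to −0.33.

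**Figure D4:**
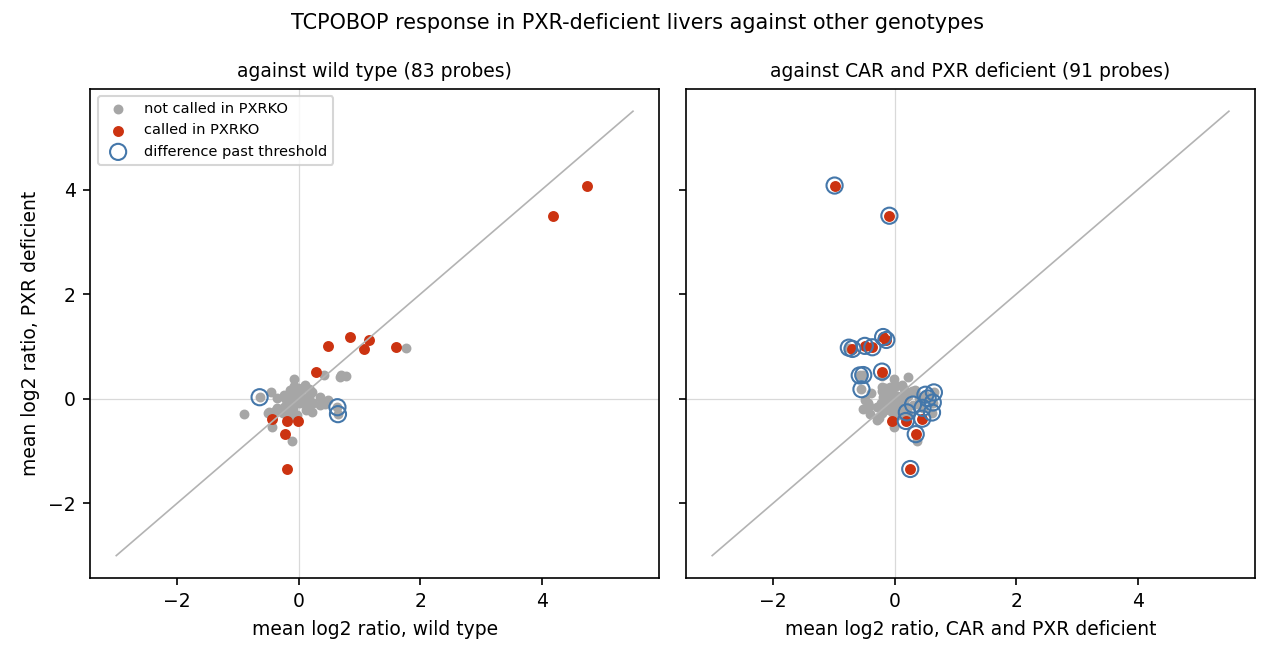
Mean log2 ratio in PXR-deficient livers (vertical) against wild type (left, 83 probes) and against livers lacking both receptors (right, 91 probes), with the line of equality; filled red points passed the threshold in PXRKO and open circles mark probes whose difference passed it. All 8 rises carry an open circle on the right and none on the left.

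In livers lacking CAR as well as PXR these rises were not seen. Every one of the 8 probes that rose in PXRKO had a mean below 0 in CARPXRKO, from −0.99 to −0.085 (the lowest, Mm038, was −0.27 without CARPXRKO 4), where 45 of 91 measured probes (49.5%) were above 0, and the response of all 8 was higher in PXRKO past the threshold. The count over the array was 12 probes higher and 12 lower of 91 (13.2% each, 26.4% together; limma, adjusted p under 0.05). Mm038 was higher by 5.07 ± 0.78 and Mm039 by 3.59 ± 0.56 on the log2 scale (SE; limma, adjusted p = 2.62e-04 for each). Neither size is a measured fold, since Mm038 was well above background in Cy3 on no array of the 2 genotypes and Mm039 on 1 of 4 in each. Mm038 kept this call in 24 of 25 alternatives and Mm039 in 25 of 26. Both lost it with odd replicates alone (limma, adjusted p = 0.0668 and 0.089). On CARPXRKO arrays Mm038, well above background in Cy5 on 1 of 4, lay at −3.15 on CARPXRKO 4 and between −0.50 and 0.13 on the others, and Mm039 between −0.15 and −0.039, with no overlap with PXRKO. Of the 5 falls, all had a lower mean in PXRKO than in CARPXRKO, and the difference passed the threshold for 4. The 8 rises and 5 falls were picked by the same PXRKO values that enter these differences. That choice favours such counts, so they are not separate support for a difference. Mm150 was lower by −1.02 ± 0.26 (SE; limma, adjusted p = 0.0076) and its groups did not overlap, the CARPXRKO arrays lying between 0.28 and 0.44. This call ended with median centring (−0.78, limma adjusted p = 0.054), with calibration centring (−0.26, adjusted p = 0.539), in the authors' deposited table (−0.47, adjusted p = 0.507) and with odd or even replicates alone. Mm001 was lower by −1.60 ± 0.57 (SE; limma, adjusted p = 0.0456), with CARPXRKO arrays between 0.13 and 0.55 and replicate 2 above them at 0.82. Without replicate 2 its difference was −2.32 (limma, adjusted p = 6.33e-04). The call of Mm001 ended in 16 of 26 alternatives. Among them were the fits without replicate 1, 3 or 4 (limma, highest adjusted p = 0.137) and without each single CARPXRKO array (highest 0.0971). Median centring (adjusted p = 0.0583), calibration centring (0.223) and the authors' deposited table (0.431) also ended it. Without replicate 3 the count was 13, without the arrays of conflicting protocol text 14, and without replicate 2 it was 34; the authors' deposited table gave 4 higher and none lower. Non-overlapping groups were found for 26 of the 91 probes (28.6%), 19 of them among the 24. The Cy3 pools differed between genotypes, and an error of either pool cannot be told apart from a difference in response.

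In livers lacking CAR alone the same 8 probes had means of −0.33 to 0.40, 6 of them above 0, against 48 of all 92 probes (52.2%). Mm038 was measured on 4 of the 6 CARKO arrays, at 0.35 ± 0.89 (SD), and at −0.074 without CARKO 1, which stood at 1.62. Mm039 was likewise at 0.40 ± 0.69 (SD), and at 0.061 without CARKO 1 at 1.43. Neither was well above background in Cy3 on any CARKO array, and in Cy5 they were on 1 and 2 arrays. The 5 probes that fell in PXRKO had means of −0.065 to 0.36 there. The highest, Mm001, rested on CARKO 5 at 2.54 and was −0.071 without it, the other 5 arrays lying between −0.17 and 0.075. The difference between PXRKO and CARKO was not tested.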

How the data were processed

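Per the file headers, the deposited scanner tables hold unnormalized median foreground and local background intensity per spot in 2 channels, background SDs, the percent of saturated pixels and a flag score; how spots were flagged is not stated there. Log2 ratios of unknown centring make up the authors' deposited value table (medians over mouse probes of 0.23, −0.27, 0.015 and 0.27 for PXRKO 1 to 4); it was an alternative only. Intensities were background-corrected with normexp (offset 50) and normalized by global loess within arrays in limma 3.58.1 (R 4.3.3), with control and flagged spots at weight 0. Spots flagged below 0 were dropped, saturated ones kept, and a probe's spots averaged. A probe was well above background where most spots exceeded local background by 2 background SDs. The bound on Mm038 used each channel's values after loess and then Aquantile normalization: mean Cy5 minus mean of the higher of its Cy3 and the lowest well-measured Cy3 per array.

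One linear model with a mean per genotype was fitted to 20 arrays (3.46 prior and 16 residual degrees of freedom for a complete probe), and p-values were adjusted over all probes tested in a comparison. The pool counts as 1 control sample, so its own spread is left out; an exact sign-flip test over 4 arrays cannot go below 0.125 (two-sided). Dyes were not swapped. The fit was run on simulated data with independent normal noise and the same spread of a probe in all genotypes. Unequal spreads between genotypes, or an array far from its group, were not simulated. Leaving out single arrays for the 4 named response probes against WT and for their group means was added after seeing the data. The arrays, the tests, the lists and the rule for named probes (the 2 largest rises and falls past the threshold per comparison) were chosen with earlier results of these data known.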

Additional observations from a re-analysis of the deposited data

Results flagged for a closer look

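Among 21 sets of values (7 named probes in PXRKO, WT and CARPXRKO), 4 held an array far from the others by Dixon's ratio; chance alone marks about 1 in 20 such sets. None was a PXRKO array, although Mm001 on replicate 2 stood at 0.82. The 4 were the log2 ratios of Mm038 and Mm039 on WT 1, of 1.91 and 1.56, of Mm001 on CARPXRKO 2, of 0.55, and of Mm044 on CARPXRKO 3, of −0.25.

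By limma, 3 probes responded differently in PXRKO and WT: Mm044 by 0.67, Mm018 by −0.94 and Mm068 by −0.80. Between PXRKO and CARPXRKO it differed for 24 probes, of which the largest 2 in each direction were Mm038 (5.07) and Mm039 (3.59), higher in PXRKO, and Mm001 (−1.60) and Mm150 (−1.02), lower.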

How the results depend on the processing

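The PXRKO response had 13 calls. It had 20 with median centring, 8 with calibration centring, 6 in the authors' deposited table (5 rises, 1 fall), 35 with array weights (0.27 for replicate 2, the second lowest of 20 arrays), 7 with the PXRKO arrays alone, 3 with even replicates and 6 to 26 without each PXRKO replicate in turn. PXRKO minus WT had 3 calls. It had 8 with background subtraction, 15 with median centring, 6 with print-tip loess, 36 with calibration centring (all higher, and Mm068 changed sign, to 0.13), 6 with flagged spots kept, and 16 with array weights. Limma gave 0 in the authors' table (14 at an unadjusted p under 0.05; median difference 0.52), 0 with odd replicates (14) and 0 with even ones (9). Without each PXRKO replicate in turn the count was 1 to 13, and without each WT replicate 3 to 5. PXRKO minus CARPXRKO had 24 calls. It had 4 in the authors' table (median difference 0.39), 14 without the 4 arrays with conflicting protocol text, 41 with array weights, 3 with odd and 8 with even replicates; 13 to 34 without each PXRKO replicate and 16 to 21 without each CARPXRKO replicate. With calibration centring its median was 0.68 and its calls 16 higher and 0 lower. The causes of these changes were not tested. Deviations of same-numbered arrays from their group means correlated at −0.034 to 0.31 with WT and at −0.15 to 0.14 with CARPXRKO. For different numbers the ranges were −0.43 to 0.21 and −0.28 to 0.22. The highest value, 0.31, was that of PXRKO 2 with WT 2. The numbers were not taken as pairs, and the replicate block kept 3 of 3 and 24 of 24 calls. Pool signals near background limit Mm038 and Mm039.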

Other observations

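The 10 probes tested here that lacked 3 values in another genotype had PXRKO means of −0.42 to 0.23 and none passed the threshold in limma; none was well above background in Cy3 on 3 or more PXRKO arrays. Mm105, singled out after its values had been seen, was at −0.068, 0.24 and 0.21 on replicates 1 to 3 and at −3.63 on replicate 4, where a single spot remained and neither channel was well above background.

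Of the control spots on the PXRKO arrays, the 4 odd-numbered ratio controls had median log2 ratios of −4.26 to −1.07 and the 4 even-numbered ones 0.46 to 2.42, on replicate 2 as on the others. The 4 spot sets named as housekeeping genes gave 2 unflagged spots of 96, with Cy5 signals of −19 to 24 units over background, so they offered no reference level.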
